A study of Mus musculus with 12 samples.

Results

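The respiratory chain of the inner mitochondrial membrane is built from subunits of mixed origin, and the genes described here are the ones kept in the nucleus. They were chosen by symbol alone, as the Nduf, Sdh, Uqcr, Cyc1, Cox4 to Cox8 and Atp5 names present in both deposited tables, which gave 85 members of 38720 gene identifiers. By these names 36 members belong to complex I, 4 to complex II, 9 to complex III, 18 to complex IV and 18 to complex V. The rule used symbols and no measured value, but the set was proposed with earlier results of these data known. A few names do not stand for a structural subunit of the complex they are listed under, since Ndufa4 is now placed in complex IV, Cox7a2l joins complexes into supercomplexes, Atp5s and Atp5sl encode accessory factors and Atp5l2 is annotated as a processed pseudogene.

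RNA-seq was performed on retinas of newborn mouse pups (postnatal day 0, strain given as C57/BL6) of 2 genotypes. In the knockout (mKO), Cre recombinase expressed from the Math5 locus acted on a homozygous floxed Ezh2 allele whose loxP sites surround exons 16 to 19, the part of the gene that encodes the catalytic SET domain of the histone H3 lysine 27 methyltransferase. Controls were labelled wild type (WT), and the study's RNA-seq methods name WT pups as well. Its general methods give Cre-negative littermates with the same homozygous floxed allele as controls unless stated otherwise. Its results call the RNA-seq controls both WT and littermate controls. Whether the sequenced controls carried the floxed allele cannot be told from these sources. Dissociated retinal cells were separated with beads against the surface protein Thy-1 (CD90) into retinal ganglion cells (RGCs), the output neurons of the retina, and the remaining cells (non-RGCs), with 3 libraries from separate RNA extractions in each of the 4 groups. Math5 is transcribed in progenitors that leave the cell cycle and Cre marks only part of the RGCs, so both mKO fractions can hold recombined and unrecombined cells. How many animals entered a library was not given in the sources used here.

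Complex I (NADH dehydrogenase) and complex II (succinate dehydrogenase) feed electrons into ubiquinone, complex III hands them to cytochrome c, and complex IV (cytochrome c oxidase) reduces oxygen. Complexes I, III and IV pump protons, and complex V (ATP synthase) uses the gradient to make ATP. RGCs have long axons that run unmyelinated inside the eye and are rich in mitochondria, and inherited defects of complex I are known to harm them before other neurons. The nuclear subunit genes are known targets of the transcription factors NRF1 and GABP and of the estrogen-related receptors (ERR), which the coactivator PGC-1 alpha assists, and of YY1.

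Promoter sequences 5′ to 3′ on the gene's strand, covering the 250 bases before the annotated start, were taken from RefSeq on GRCm38.p6 and matched 67 of the 80 members with enough reads to be tested. The 4 members below run from the largest called fall in RGCs (Cox5a) through other called falls (Cox6a1, Atp5g2) to the single rise (Ndufb2). They were not drawn evenly from the falls, since Cox8a, Atp5d and Ndufs7 fell more than Atp5g2, held no searched motif and are not shown. Capitals mark letters of the searched motifs on either strand.
Cox5a, chr9:57520982-57521231, plus strand: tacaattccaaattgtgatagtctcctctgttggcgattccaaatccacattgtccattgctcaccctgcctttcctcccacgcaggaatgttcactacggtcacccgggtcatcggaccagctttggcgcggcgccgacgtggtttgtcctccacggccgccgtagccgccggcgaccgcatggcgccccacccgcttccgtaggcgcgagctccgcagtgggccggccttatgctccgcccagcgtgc
Cox6a1, chr5:115348959-115349208, minus strand: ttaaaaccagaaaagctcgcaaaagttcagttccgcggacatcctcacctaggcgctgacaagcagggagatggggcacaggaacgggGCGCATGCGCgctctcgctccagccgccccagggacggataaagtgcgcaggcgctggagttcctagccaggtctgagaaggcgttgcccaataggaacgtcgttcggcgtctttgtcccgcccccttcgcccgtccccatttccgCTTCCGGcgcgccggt
Atp5g2, chr15:102671048-102671297, minus strand: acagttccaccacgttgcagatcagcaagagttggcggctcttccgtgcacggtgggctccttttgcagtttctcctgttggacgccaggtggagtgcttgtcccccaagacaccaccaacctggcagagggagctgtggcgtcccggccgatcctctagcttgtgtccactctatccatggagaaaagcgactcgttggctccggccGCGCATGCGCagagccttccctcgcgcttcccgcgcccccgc
Ndufb2, chr6:39592315-39592564, plus strand: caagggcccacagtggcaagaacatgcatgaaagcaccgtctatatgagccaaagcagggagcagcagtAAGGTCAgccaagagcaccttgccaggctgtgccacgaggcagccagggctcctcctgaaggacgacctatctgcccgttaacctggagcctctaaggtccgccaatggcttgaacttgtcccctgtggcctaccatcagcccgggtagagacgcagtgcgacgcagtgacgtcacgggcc

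The NRF1 core (GCATGCGC, on either strand, so that the 10-letter palindrome in Cox6a1 and Atp5g2 counts as overlapping matches) stood in 8 of the 67 member promoters (11.9%) and in 506 of all 12085 promoters of tested genes (4.19%). The 8 were Atp5g2, Atp5k, Atp5l, Cox6a1, Ndufa11, Ndufa6, Ndufa8 and Sdhb. The GABP core (CCGGAAG) was held by 11 member promoters (16.4%) against 12.6% of all promoters, and the ERR core (AAGGTCA) by 5 (7.46%) against 2.80%. The YY1 core (AAGATGG) was in 0 of the 67 and in 4.18% of all promoters. Among the 50 promoters of members called lower in mKO RGCs, 7 held the NRF1 core, 8 the GABP core and 2 the ERR core, and among the other 17 promoters the numbers were 1, 3 and 3. The matches are descriptions of these letters in this window and no binding was measured.

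Values are reads divided by the deposited size factors (normalised read counts), and changes are mKO over WT on the scale of log2 (normalised read count + 1). In mKO RGCs 60 of the 80 tested members were lower than in WT RGCs, 1 was higher and 19 were not called, at an adjusted p under 0.05 in limma with adjustment over all 16085 genes tested. The background was 21.2% of all genes called lower and 16.3% called higher. The median member changed by −0.43 on the log2 scale, where the median of all genes tested was −0.002, and 73 of the 80 members had a negative change. In 67 members the 3 mKO libraries were all below the lowest WT library, in 4 all above the highest, and in 9 the groups overlapped, against 28.2% of all genes wholly below and 24.8% wholly above. With the trends of change with GC content and with read density over all genes removed (described after the lists of related genes), 19 members were called lower and 0 higher in limma, where 3.81% of all genes were lower and 2.03% higher, and the median over the 80 members was −0.14. Of the 60 calls 18 were kept, namely Ndufa4, Ndufb6, Ndufb8, Ndufs3, Ndufs7, Sdhc, Uqcrq, Cox5a, Cox5b, Cox6c, Cox7b, Atp5b, Atp5d, Atp5e, Atp5f1, Atp5g3, Atp5j2 and Atp5o, so that every other member's call was lost under that setting. Without the removal the falls were modest, with a median of −0.46 among the 60 called members and a weakest called fall of −0.21. With a minimum fold of 1.5 added, 11 members were called lower and 0 higher (limma, adjusted p as before), against 5.51% of all genes lower and 7.91% higher. The members missing from the test had a mean below 10 normalised reads in both genotypes, and were Atp5l2, Cox6a2, Cox7b2, Cox8b and Cox8c.

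**Figure D1:**
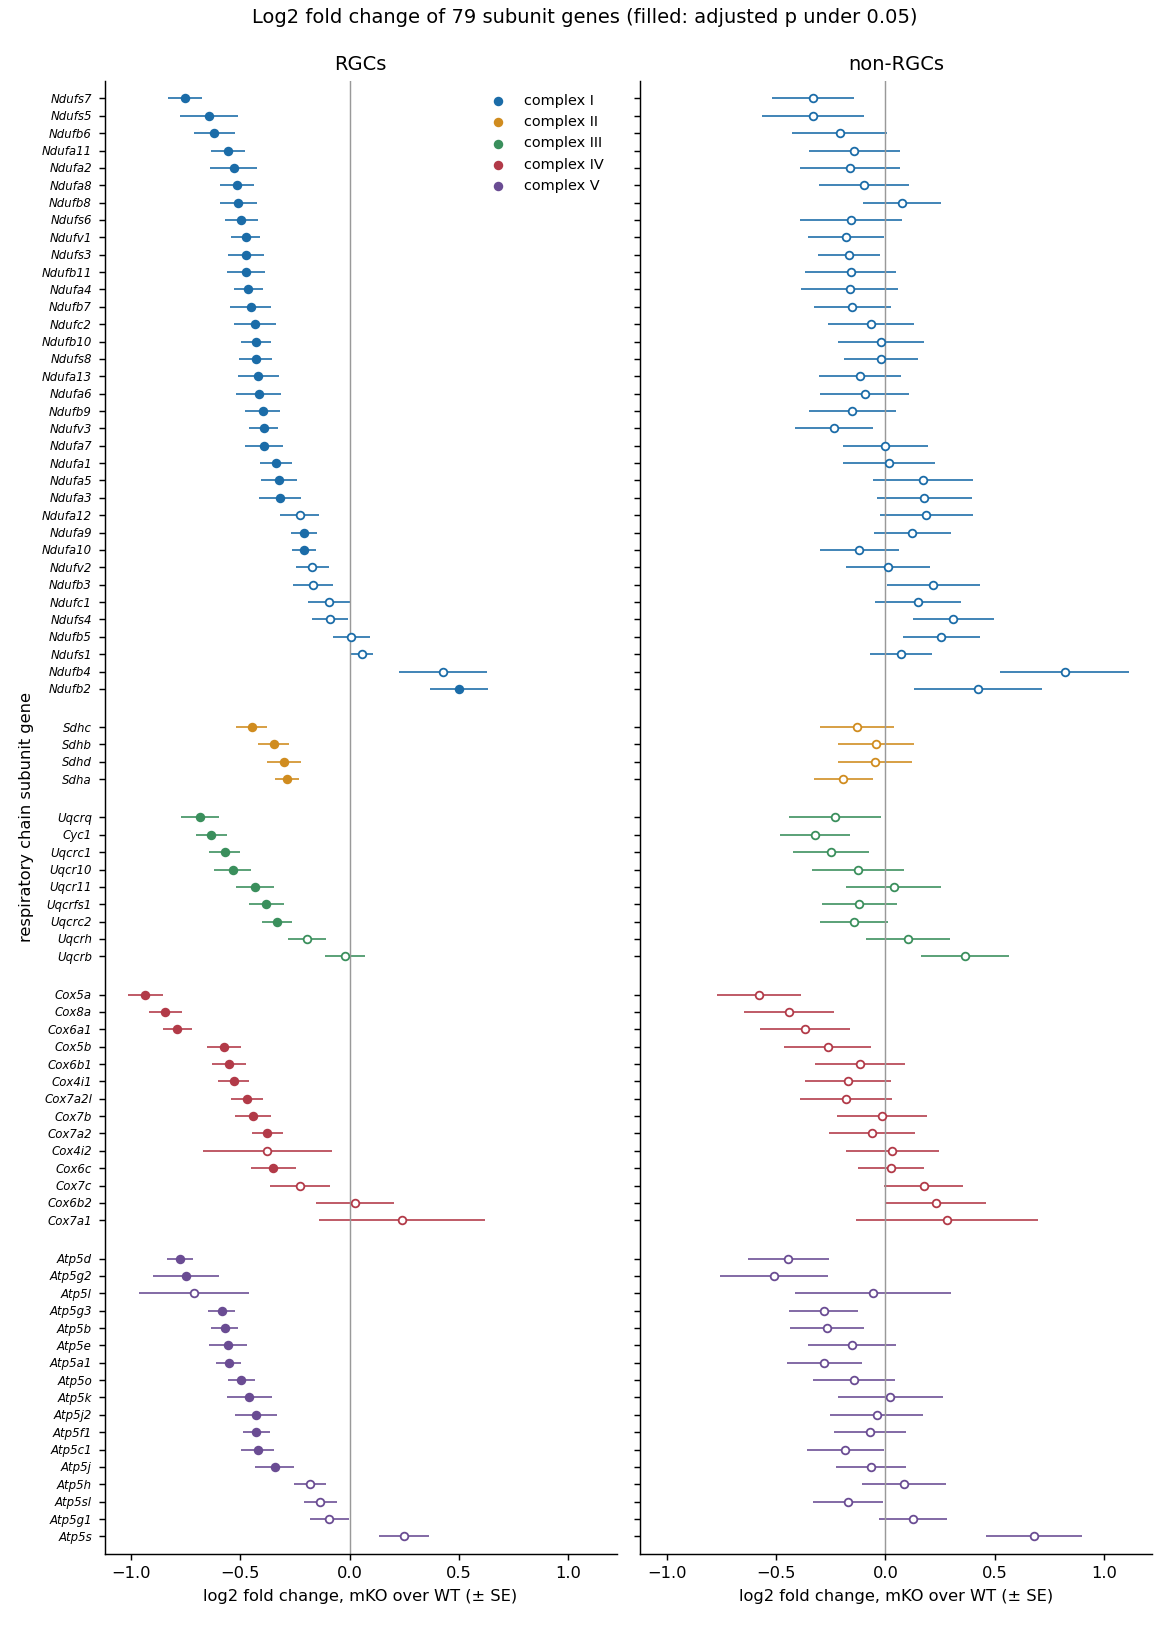
The log2 fold change (mKO over WT, log2 of normalised read count + 1) of 79 of the 80 tested members, grouped by complex, in RGCs and in non-RGCs, with bars of ± 1 standard error from 3 libraries per group and filled symbols for an adjusted p under 0.05 in limma. In RGCs 72 of the plotted members sit below 0 and 59 of them are filled, while in non-RGCs 53 sit below 0 with wider bars and none is filled.

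As a share of all reads assigned to genes, the 85 members together took 0.435 ± 0.0296% (SD, n = 3) in WT RGCs, with libraries from 0.418% to 0.469%, and 0.354 ± 0.00937% in mKO RGCs, from 0.346% to 0.365%. The groups did not overlap. Each complex showed the same separation in its share. Complex I took 0.165 ± 0.0106% in WT and 0.142 ± 0.00397% in mKO RGCs. Complex II took 0.0377 ± 0.00268% and 0.0326 ± 0.000852%, and complex III 0.0577 ± 0.00465% and 0.0457 ± 0.00179%. For complex IV the shares were 0.0504 ± 0.00418% and 0.0373 ± 0.000938%, and for complex V 0.125 ± 0.00752% and 0.0971 ± 0.00193%. These shares need no size factor, and 3 libraries against 3 cannot give an exact permutation p below 0.1, so no p is given for them. Every mKO RGC library was deeper than every WT RGC library (12391602 to 13014004 against 10600964 to 12328717 reads on genes, after removal of duplicates). The WT library with 12328717 reads had a share of 0.418%, and the mKO library with 12391602 reads had 0.346%. As the order of depth followed genotype, the 2 cannot be fully told apart, and the part of depth in the shares was not tested.

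**Figure D2:**
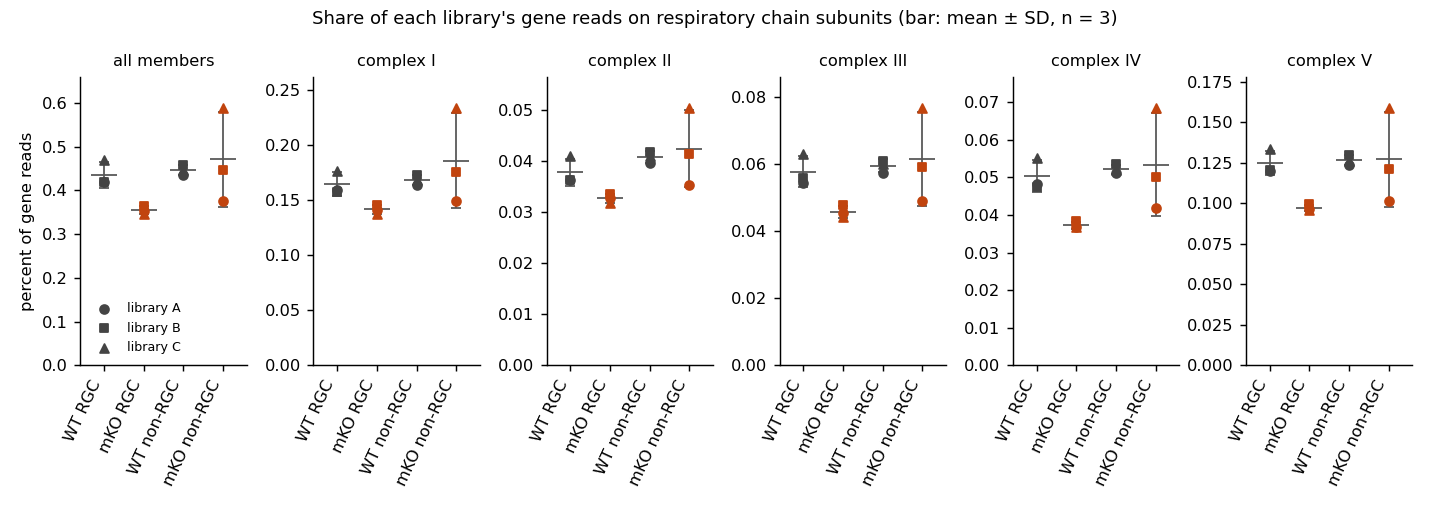
Percent of all gene reads that fell on the members, summed over all members and by complex I to V, in each of the 12 libraries (one marker shape per library, with the mean ± SD of 3 libraries in each group). The mKO RGC libraries lie below the WT RGC libraries in every panel, and the 3 mKO non-RGC libraries spread from 0.377% to 0.588% for all members together, on both sides of the WT non-RGC libraries.

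Complex I, the largest of the complexes, had 27 of its 36 members called lower, 1 called higher and 8 not called, with a median log2 change of −0.42 and a range from −0.75 to 0.50. Ndufs7 (ENSMUSG00000020153, chr10:80249121-80256794), which carries the last iron-sulfur cluster before ubiquinone, fell the most. Its normalised read counts were 706, 703 and 813 in WT RGCs and 439, 445 and 430.1 in mKO RGCs, a fall by 40.7% (log2 change −0.75 ± 0.08 SE, adjusted p = 0.00088, limma). The libraries of the genotypes were well apart. Ndufs5 and Ndufb6, accessory subunits, came next. Ndufs5 had 124, 113 and 117 in WT and 75.9, 75.6 and 73.4 in mKO RGCs (−0.64 ± 0.13, adjusted p = 0.0097, limma), and Ndufb6 had 312, 329 and 356 against 213, 222 and 212 (−0.62 ± 0.09, adjusted p = 0.0028, limma). Neither pair of groups overlapped. Exons of Ndufb6 are shared with the opposite-strand gene Smim27, and the library kit does not keep strand, so reads of such overlapping pairs cannot be told apart. The same holds for 28 of the 85 members, which overlap at least 1 exon of another annotated gene.

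The core subunits that take up and carry the electrons did not all follow this order. Ndufv1, the NADH-binding flavoprotein, had 1512, 1506 and 1686 normalised reads in WT RGCs and 1083, 1181 and 1114 in mKO RGCs. It fell by 28.1% (adjusted p = 0.0022, limma), with no overlap between the groups. Ndufs1, the large subunit that holds several iron-sulfur clusters, had 1124, 1158 and 1179.9 in WT and 1197, 1225 and 1182 in mKO RGCs, and was not called (0.06 ± 0.05, adjusted p = 0.40, limma). Its mKO libraries lay just above its WT libraries, but its direction depended on the processing, since it was called lower with the GC trend removed (−0.25) and higher with values scaled to total reads (0.18). The other complex I members not called were Ndufa12, Ndufb3, Ndufb4, Ndufb5, Ndufc1, Ndufs4 and Ndufv2, with log2 changes from −0.23 to 0.43.

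Ndufb2 (ENSMUSG00000002416, chr6:39592574-39603382), a small accessory subunit, was the single member that rose. It had 356, 313 and 259 normalised reads in WT RGCs and 421, 407 and 479.9 in mKO RGCs, 41.6% higher (0.50 ± 0.13, adjusted p = 0.024, limma). The groups did not overlap, but the call was lost when any 1 of the 3 mKO libraries or WT library B was left out, and when the trend of change with GC content over all genes was removed. The gene shares annotated exons with Braf and Gm16272 on the opposite strand and Gm42420 on its own, and its annotated exons span 5628 bases against a median of 1697 over the members tested.

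All 4 members of complex II were called lower, with a median of −0.32. Sdha, the flavoprotein that oxidises succinate, had 2040.3, 2129 and 2234 normalised reads in WT RGCs and 1727, 1795 and 1727 in mKO RGCs (−0.29 ± 0.05, adjusted p = 0.0069, limma). Sdhb, the iron-sulfur subunit, had 788, 744 and 857 against 612, 644 and 618 (−0.35 ± 0.07, adjusted p = 0.0094, limma). For the membrane anchors, Sdhc had 928, 925 and 1057 against 708, 728 and 693 (−0.45 ± 0.07, adjusted p = 0.0035, limma), and Sdhd had 767, 783 and 902 against 657, 665 and 664 (−0.30 ± 0.08, adjusted p = 0.021, limma). No WT and mKO libraries overlapped in any of the 4. The calls of Sdha, Sdhb and Sdhd were lost when values were scaled to total reads in place of the deposited size factors, and that of Sdhd also when any 1 mKO library was left out. With the GC trend removed Sdhb and Sdhd were not called (−0.06 and −0.28), and with both trends removed their changes turned to 0.036 and 0.041.

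In complex III 7 of 9 members were called lower and 0 higher (median −0.43, limma, 7 lower and 0 higher at an unadjusted p under 0.05). Cyc1, the cytochrome c1 that reduces cytochrome c, had 1159.5, 1182 and 1314 normalised reads in WT RGCs and 781, 822 and 750.0 in mKO RGCs, a fall by 35.5% (adjusted p = 0.00099, limma). Uqcrfs1, the Rieske iron-sulfur protein, had 951, 966 and 1117 against 747, 810.5 and 766 (−0.38 ± 0.08, adjusted p = 0.0096, limma). Both electron carriers were lower in every mKO library. Uqcrq, a small subunit near cytochrome b, fell the most in this complex, from 466, 497 and 549 to 304, 323 and 311 (−0.68 ± 0.09, adjusted p = 0.0015, limma). The core protein gene Uqcrc1 had 1542, 1588 and 1774 against 1047, 1147 and 1100.1 (−0.57 ± 0.07, adjusted p = 0.0014, limma). Uqcrb and Uqcrh were not called, and Uqcrb was nearly level, with 233, 252 and 263 in WT and 249.5, 242 and 245 in mKO RGCs.

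Complex IV held the 3 largest called falls of all members. Of its 18 members 14 were tested, of which 10 were lower, 0 higher (limma, 0 at an unadjusted p under 0.05) and 4 not called, with a median of −0.46. Cox5a (ENSMUSG00000000088, chr9:57521274-57532426), a peripheral subunit on the matrix side, had 457, 452 and 494 normalised reads in WT RGCs and 239.9, 241 and 251 in mKO RGCs, a fall by 47.7% (−0.93 ± 0.08, adjusted p = 0.00065, limma). Cox8a, a small membrane subunit, had 567, 567 and 623 against 318, 334 and 326, a fall by 44.3%, and Cox6a1 had 763, 768 and 834 against 442, 469 and 455, a fall by 42.1% (adjusted p = 0.00066 and 0.00065, limma). In each of these the highest mKO library was far under the lowest WT library. The call of Cox6a1 was lost with the GC trend removed (−0.15, adjusted p = 0.14, limma) and its change was 0.020 with both trends removed, where Cox8a was at −0.23 (adjusted p = 0.093, limma). Cox4i1, the ubiquitous form of subunit IV, had 907, 909 and 1035 against 646, 672 and 650.3 (−0.53 ± 0.07, adjusted p = 0.0019, limma). Cox5a shares exon bases with Gm26631 and Cox4i1 with Emc8, each on the opposite strand.

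Several complex IV subunits exist as a ubiquitous form and a tissue-restricted one, and the forms called at the minimum used here were ubiquitous ones. Besides Cox4i1, Cox6a1 and Cox8a, these were Cox6b1 (569.6, 556 and 606 in WT against 386, 419.5 and 376 in mKO RGCs), Cox7a2 (481, 499 and 525 against 376, 393 and 389.6) and Cox7b (426, 445 and 479.6 against 322, 344 and 326), with adjusted p of 0.0022, 0.0069 and 0.006 in limma. The restricted partners had too few or too uneven reads for a like statement, and the difference between partners was not tested. Cox4i2, the form known from lung and hypoxia, had 158, 141 and 319.8 in WT and 152, 156 and 137 in mKO RGCs, so that 1 WT library stood far above the rest (−0.38 ± 0.30, adjusted p = 0.35, limma). Cox6b2, the testis form, had 102, 78.2 and 104 against 84.6, 108 and 96 (adjusted p = 0.92, limma), and Cox7a1, a heart and muscle form, had 29.4, 28.2 and 12.8 against 20.1, 34.1 and 26.3 (adjusted p = 0.65, limma). The groups overlapped in all 3. Cox6a2, the muscle partner of Cox6a1, had 4.05, 5.43 and 2.33 normalised reads in WT RGCs and 0.873, 0.922 and 0 in mKO RGCs and was below the minimum for a test. With no minimum it was called lower (−1.64, adjusted p = 0.035, limma), at these few reads. Cox7b2 and Cox8b had at most 3.5 in any RGC library, and Cox8c had 0 reads in all 12 libraries.

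In complex V 12 of 17 tested members were lower and 0 higher (limma, 14 and 0 at an unadjusted p under 0.05), with a median of −0.46. The genes of the catalytic head and its stalk named here were among them. Atp5b, the catalytic beta subunit, had 3003, 3141 and 3429 normalised reads in WT RGCs and 2092, 2169.6 and 2171 in mKO RGCs (−0.57 ± 0.06, adjusted p = 0.00095, limma). Atp5a1, the alpha subunit, had 3297, 3474 and 3659 against 2299, 2437 and 2366 (−0.55 ± 0.06, adjusted p = 0.00088, limma). Atp5c1, the gamma subunit of the rotor, had 1088, 1120.3 and 1272 against 872, 896 and 825 (−0.42 ± 0.08, adjusted p = 0.0056, limma). Atp5d, the delta subunit of the central stalk, fell the most in this complex, from 1135, 1133 and 1192 to 645, 692 and 681, by 41.6% (adjusted p = 0.00064, limma). All 4 genes had no overlap between WT and mKO libraries. With both trends removed Atp5a1 was at −0.033 and Atp5c1 at −0.077 (adjusted p = 0.73 and 0.55, limma), and neither was called. Atp5d shares exon bases with Cbarp and Atp5a1 with Haus1 on the opposite strand, and a named pseudogene of Atp5c1 is annotated whose reads could be split with it.

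Subunit c, the proton-carrying ring, is encoded by several genes that differ in their import sequences. Atp5g3 had 987, 994 and 1076 normalised reads in WT RGCs against 688, 688 and 659 in mKO RGCs, and Atp5g2 had 102, 104 and 114 against 57.6, 64.5 and 67.8 (adjusted p = 0.00088 and 0.0086, limma). Both fell, by 33.4% and 40.5%. Atp5g1 had 667, 644 and 560.2 against 619, 552 and 579.7, with overlapping groups, and was not called (−0.09 ± 0.09, adjusted p = 0.44, limma). The difference between these genes was not tested. The remaining complex V members not called were Atp5h, Atp5l, Atp5s and Atp5sl. Atp5l had few reads, with 26.4, 23.9 and 25.7 in WT and 14, 12.9 and 18.8 in mKO RGCs (−0.71 ± 0.25, adjusted p = 0.062, limma).

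**Figure D3:**
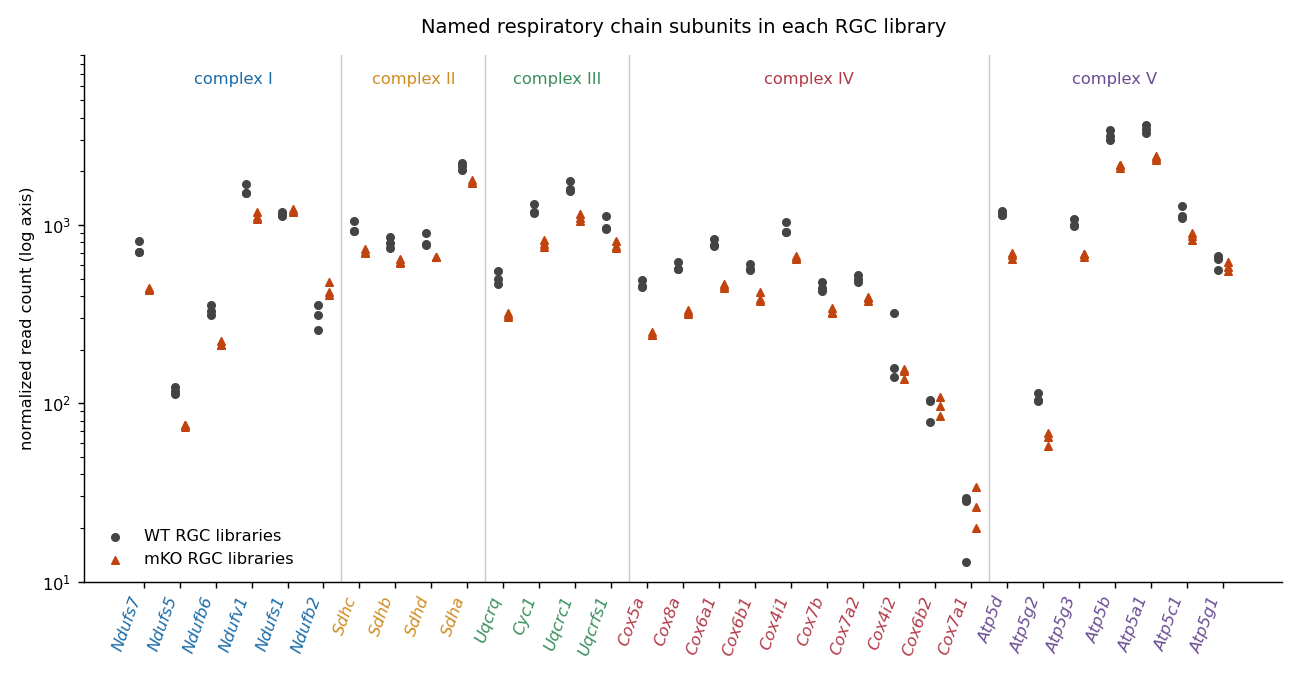
Normalised read counts of the named members in the 6 RGC libraries on a log axis, in order of complex, with circles for WT and triangles for mKO, 3 libraries each. The triangles lie below the circles in most members, such as Cox5a (239.9 to 251 against 452 to 494), above them in Ndufb2, and among them in Cox4i2, Cox6b2, Cox7a1 and Atp5g1.

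Per length, in reads per kilobase of the principal transcript after scaling each library to the same number of gene reads (RPKM computed here), the highest members in WT RGCs were Atp5b at 133 ± 10.1 (SD, n = 3), Atp5g3 at 113 ± 6.57, Atp5a1 at 112 ± 6.58, Cox6a1 at 110 ± 6.69 and Cox4i1 at 99.4 ± 8.70. From Atp5g3 to Cox6a1 neighbours in this order differed by less than their spread. In mKO RGCs the same genes were at 97.4 ± 1.35, 81.6 ± 3.06, 83.4 ± 2.35, 69.5 ± 1.98 and 74.6 ± 1.92. A length for the principal transcript was missing for Atp5c1, Atp5l2, Atp5sl, Ndufa9 and Ndufv3, which are not in this order.

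In non-RGCs, 0 of the 80 members were called in either direction in limma over 15326 genes, of which 6.43% were called lower and 4.18% higher. At an unadjusted p under 0.05 in limma, 2 members were lower and 2 higher, where 2554 and 2026 of all 15326 genes were. Voom also called 0 members, with 4 lower and 2 higher at that p, where 2557 and 2100 of all genes were. The median change was −0.11, against −0.03 over all genes, and 54 members were negative. The standard error was larger than in RGCs, with a median of 0.20 against 0.08. Groups overlapped in 76 members, were wholly below WT in Cox5a and Atp5g2 and wholly above in Ndufb4 and Atp5s, where 19.2% and 17.5% of all genes were separated in these directions. Cox5a had 355, 383 and 413 normalised reads in WT and 204, 255 and 322 in mKO non-RGCs (−0.58 ± 0.19, adjusted p = 0.083, limma). Atp5g2 had 105, 108 and 127 against 61.6, 77.7 and 103 (adjusted p = 0.20, limma). Atp5s had 115, 103 and 77.2 against 144, 157 and 167 (0.68 ± 0.22, adjusted p = 0.075, limma), the smallest adjusted p of any member here, and Ndufb4 had 26.2, 21.3 and 24 against 37.8, 38.4 and 53.7 (adjusted p = 0.099, limma).

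The 3 mKO non-RGC libraries spread widely in these genes. Library C, the shallowest of all 12 with 7139633 reads on genes, was the highest of the 3 in 78 of the 80 members, which held for 41.1% of all genes tested, and library A was the lowest in 77 (42.2% of all genes). Library C lay above all WT libraries in 67 members (34.8% of all genes), and libraries A and B both lay below all WT libraries in 54 (28.5% of all genes). Atp5b shows this spread, with 1950.3, 2404 and 3227 in mKO libraries A, B and C and 2840.3, 3016 and 3084 in WT, as does Cox6a1 with 386, 491 and 709 against 639.7, 669.6 and 675. The members' share of gene reads was 0.470 ± 0.108% in mKO and 0.447 ± 0.0116% in WT non-RGCs. Without library C, 8 members were called lower (Atp5a1, Atp5b, Atp5d, Atp5g3, Cox5a, Cox6a1, Cox8a and Ndufs7), where 7.35% of all genes were lower, and the median was −0.29, and without library A the median was 0.07.

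Whether the mKO effect differed between the fractions was tested in limma as an interaction over 14894 genes, of which 0.107% were called in either direction. Of the 80 members 0 were called. At an unadjusted p under 0.05 in limma, 3 members were more negative in RGCs, as were 457 of all 14894 genes, with 1042 more positive. Voom called 0 members, with 1 more negative at that p, as were 423 of all genes. The change was more negative in RGCs in 78 members, by a median of −0.33 on the log2 scale, with a median standard error of 0.22 and a smallest adjusted p of 0.43. The median rested on the mKO non-RGC libraries, and was −0.15 without library C and −0.49 without library A. Without library A 59 members were more negative in RGCs at an unadjusted p under 0.05 and 0 were called in limma. Of all 14881 genes 1508 were more negative at that p there and 1823 more positive. The median was −0.11 with the exon length trend removed. The smallest adjusted p belonged to Ndufb8, with a difference of −0.58 ± 0.20. In RGCs Ndufb8 had 465, 470.1 and 520.5 in WT against 339, 361 and 322 in mKO, and in non-RGCs 409, 414 and 442 against 387, 396 and 572. The test therefore showed neither that the fractions differed in any member nor, at these errors, that they were alike.

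Genes that act around the complexes were counted in the same way in RGCs, where 21.2% of all genes were lower and 16.3% higher. Of 14 complex I assembly factors 2 were lower and 5 higher (median 0.14), led by Ndufaf4 (0.54 ± 0.08, adjusted p = 0.0026, limma) and Nubpl, which inserts iron-sulfur clusters (0.45 ± 0.13, adjusted p = 0.033, limma). Of 7 assembly factors of complexes II and III 1 was lower, Uqcc2 (−0.41), and 1 higher, Ttc19 (0.38). Of 17 for complex IV 4 were lower and 2 higher, with Cox17, a copper chaperone, higher by 0.92 ± 0.22 (adjusted p = 0.016, limma) and Cox16 lower by −0.91 ± 0.16 (adjusted p = 0.0056, limma). Of 4 assembly and inhibitor genes of complex V 0 were called in limma (1 lower at an unadjusted p under 0.05). Among 5 mobile carriers and flavoprotein genes 1 was lower, Dhodh (−0.32), and Cycs, cytochrome c itself, ranged from 221 to 252 in WT and from 226 to 254 in mKO RGCs. Among 12 ubiquinone synthesis genes 3 were lower and 3 higher, Pdss1 by 0.50 and Coq3 by 0.45. These lists were chosen with results of these data known, Sdhaf3, Sdhaf4, Uqcc3, Coa7 and Coq8a were not found in the tables under these names, and no test compared the lists with the subunits.

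Among 13 regulators of respiratory genes 3 were lower and 4 higher in mKO RGCs, beside the same 21.2% and 16.3% of all genes. Ppargc1a, which encodes PGC-1 alpha, ranged from 194 to 298 normalised reads in WT and from 408 to 426 in mKO RGCs (0.70 ± 0.17, adjusted p = 0.018, limma). Yy1 ranged from 1593 to 1790.2 against 1144 to 1213 (−0.50 ± 0.06, adjusted p = 0.0014, limma). Nrf1 itself was not called, with 874 to 1039 in WT and 919 to 939.6 in mKO RGCs. The regulator and subunit changes are values from the same libraries, and a link between them was not tested.

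Other mitochondrial genes were called in 1 direction, beside 21.2% of all genes lower and 16.3% higher. The counts in these and the preceding lists were not repeated with the trends of GC content and read density removed. All genes with 0.354 to 0.5 reads per base of exon had a median change of −0.35 in RGCs. Of 13 citrate cycle genes 7 were lower and 0 higher (limma, 9 and 0 at an unadjusted p under 0.05), with Mdh2 at −0.67 and Cs, citrate synthase, at −0.52. Of 16 import, channel and carrier genes 9 were lower and 0 higher (10 and 0 at that p), with the ADP/ATP carriers Slc25a4 and Slc25a5 at −0.61 and −0.58. The 7 subunit genes of the mitochondrial genome that could be tested were all lower, such as mt-Nd4 (947 to 1026 in WT against 667 to 711 in mKO RGCs, −0.51) and mt-Nd2 (−0.48), and their median of −0.46 lay near the −0.43 of the nuclear members. The other 6 were at or near 0 reads, with mt-Co2, mt-Co3, mt-Atp6, mt-Atp8 and mt-Nd4l listed at 0 in WT RGCs. Whether transcripts of these 6 were absent or were not counted cannot be told from the deposited values. The medians were not compared in a test, and removal of duplicates compresses the counts of genes with many reads per base. In non-RGCs 6.43% of all genes were called lower and 4.18% higher. There 3 of 14 complex I assembly factors were higher, led by Tmem126b at 0.72 and Ndufaf1 at 0.70. Of 13 regulators 3 were lower, led by Ppargc1b at −1.33 and Polrmt at −0.70. Coq10b, 1 of 12 ubiquinone synthesis genes, was higher at 0.84, and Ogdh, 1 of 13 citrate cycle genes, was lower at −0.50.

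**Figure D4:**
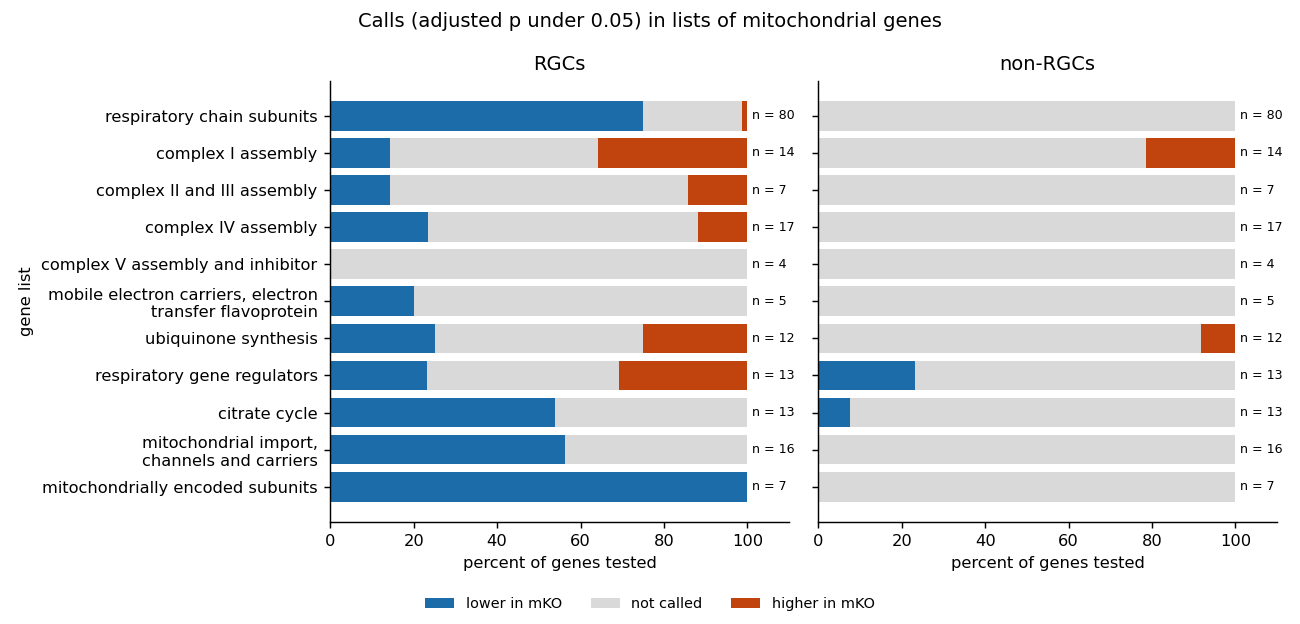
Percent of tested genes called lower, not called and called higher (adjusted p under 0.05, limma) among the 80 members and in 10 lists of related genes, in RGCs and in non-RGCs. In RGCs the members, the mitochondrially encoded subunits, the carriers and the citrate cycle genes are called mostly or only lower, while the assembly factors of complexes I to IV and the regulators are called in both directions and those of complex V in neither. In non-RGCs at most 3 genes of any list are called.

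Genes of like composition and read density also moved in RGCs. Over the 12795 genes whose mean reached 50 normalised reads in RGCs, the log2 change went down as the GC content of the exons went up (Spearman −0.72 across genes) and as the number of WT reads per base of exon went up (−0.54), and genes are not independent replicates. WT reads enter both the reads per base and the change, so part of the second value can be built in. That limit also touches the other values and bin counts for reads per base in both fractions, and its size was not tested. The members have an ordinary GC content, with a median of 50.2% against 49.5% over all genes, but a short exon length and many reads, with a median of 0.355 reads per base against 0.0907, so that 88.4% of genes lay below the median member. All genes with 50 to 52% GC had a median change of −0.12, and all genes with 0.354 to 0.5 reads per base had a median of −0.35. Against the median of all genes in their own bin 70 of the 80 members were lower for GC content, and 55 were lower and 24 higher for reads per base. Within the members the same order was seen, with Spearman values of −0.36 and −0.42, and the 60 called lower had a median GC content of 51.3% and 0.410 reads per base against 46.6% and 0.153 in the other 20. The 19 members called lower with both trends removed were the 18 kept calls and Atp5l, and the part of either trend in the members' fall was not tested beyond this.

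**Figure D5:**
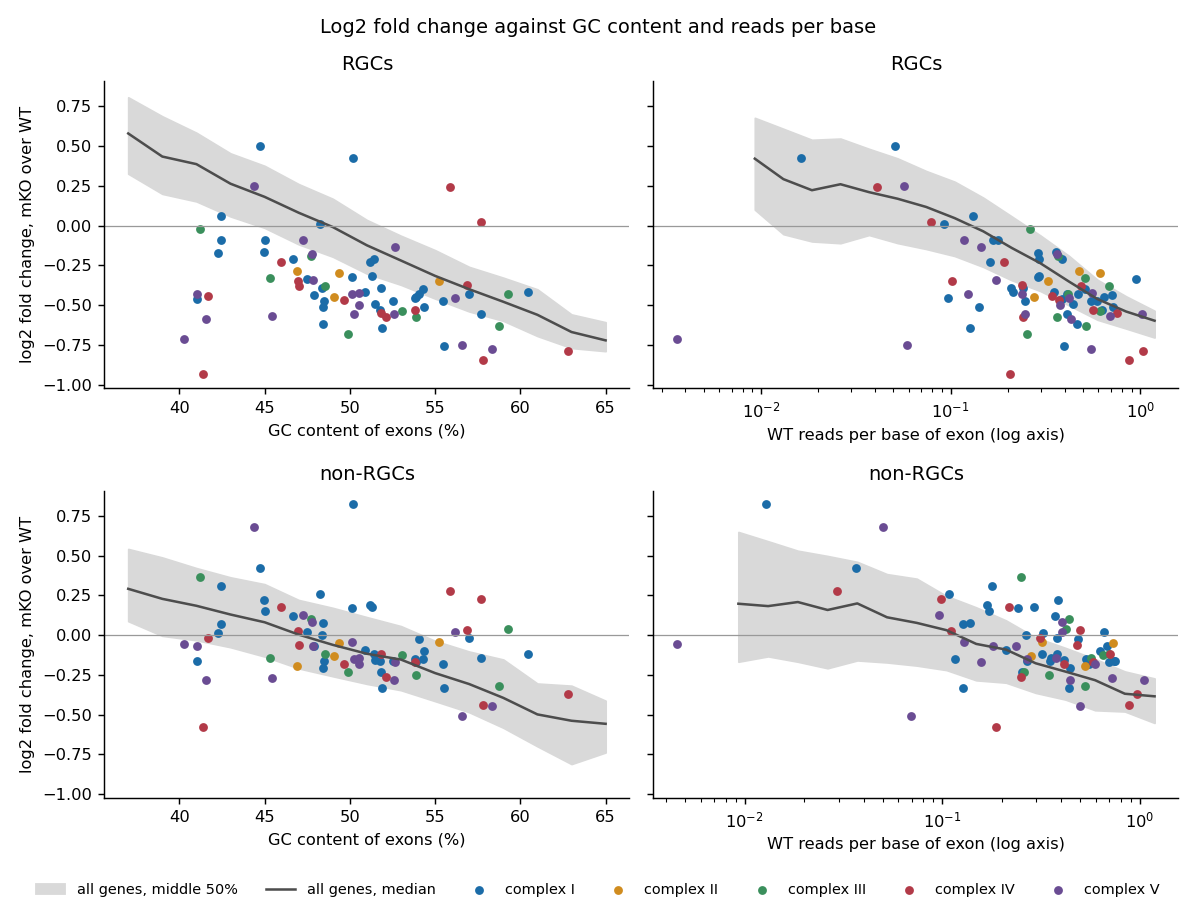
The log2 fold change (mKO over WT) against the GC percent of the exons and against WT reads per base of exon (log axis), in RGCs above and non-RGCs below. The line and band are the median and middle 50% of all genes in each bin, and the points are the members, coloured by complex. In RGCs the line falls from 0.58 at 36 to 38% GC to −0.72 at 64 to 66%, and most members lie on or below it.

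In non-RGCs the trends ran in the same direction and were weaker (Spearman −0.49 for GC content and −0.39 for reads per base, over 12231 genes). There 39 of the 80 members lay below the median of their GC bin and 16 below that of their reads-per-base bin, so that most members sat above genes of like read density in this fraction and below them in RGCs. This contrast was not tested, and it includes mKO non-RGC library C. Without that library the members' median change in non-RGCs was −0.29 in place of −0.11, and the bins were not recounted.

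Facts of the libraries touch these values. Total reads on genes were 12391602 to 13014004 in mKO RGCs, 10600964 to 12328717 in WT RGCs, 7139633 to 12828281 in mKO and 11100177 to 12157900 in WT non-RGCs. Ezh2 reads of the whole gene were 1354, 1476 and 1443 in mKO RGCs against 1189.9, 1206 and 1678 in WT RGCs (adjusted p = 0.64, limma). They include the exons that Cre leaves in place, so they cannot settle whether the floxed exons were lost. The study reported reduced Ezh2 in mKO RGCs by qPCR and Western blot, and a changed Ezh2 level in its RNA-seq. No fall in Ezh2 was seen in the reads used here. Thy1, the sorting marker, had 1425, 1426 and 1422 in mKO RGCs against 2394, 2519 and 2208 in WT, and 67.0, 79.6 and 93.2 in mKO non-RGCs against 4.51, 1.94 and 9.38. The 12 RGC markers summed to 23384 to 24514 in mKO RGCs against 32395 to 35033 in WT RGCs, and 10 of 12 were lower there, while 8 were higher in mKO non-RGCs. In mKO RGCs 5 of 6 tested blood markers were higher, with sums of 284 to 349 against 129 to 148, as were 5 of 6 in mKO non-RGCs (571 to 873 against 139 to 223). Photoreceptor markers (4 of 10 lower, sums of 8032 to 8449.7 against 9389.8 to 13157) and amacrine markers (4 of 8 lower, 6059 to 6420.1 against 6542 to 8078) were also called in mKO RGCs. So were 3 of 10 progenitor, 2 of 7 astrocyte and Müller and 1 of 8 endothelial and pericyte markers, all lower. Over all genes 21.2% were called lower and 16.3% higher in RGCs, and 6.43% lower and 4.18% higher in non-RGCs. The progenitor, astrocyte and Müller, and endothelial and pericyte counts lay near the 21.2%. The median RGC marker changed by −0.47 in RGCs and by 0.99 in non-RGCs. In the interaction 5 of 12 RGC markers were called in limma, where 0.107% of all genes were. Changes in cell number, in RNA per cell and in how the beads divided the cells cannot be told apart in these bulk samples. The part of these marker shifts in the members' values was not tested. WT RGC library C held more of other cells' markers, with progenitor markers summing to 27024 against 17848 and 18527 in libraries A and B. It was also the shallowest RGC library, with 10600964 reads on genes. It was the highest of the 3 in 72 of the 80 members and in 46.3% of all genes, and the part of depth or of other cells in this was not tested. Without it 61 members were called lower, with a median of −0.38, where 27.6% of all genes were lower.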

How the data were processed

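RNA-seq of 12 libraries (3 in each of 4 groups) was analysed. Per the labels and the methods, the authors mapped reads (mm10, single-end) by STAR 2.3.1z4, kept primary alignments, removed duplicates, counted reads per gene with featureCounts and compared genotypes with DESeq. The deposited values used are group means of size-factor normalised counts (signal) per gene and fraction. The deposited fold changes, p-values and adjusted p-values were not used, and 0 columns of single-library values were left out. Removing duplicates of single-end reads keeps 1 read per start position and strand, which compresses the counts of genes with many reads per base. Size factors were 1.06 to 1.15 in mKO RGCs and 0.857 to 0.987 in WT RGCs. In mKO non-RGC libraries A, B and C the members had 48306, 45955 and 41994 reads, of 12828281, 10288195 and 7139633 on genes. The part of duplicate removal in the members' changes was not tested.

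Whole reads of each library were recovered from the means, which carry 15 significant digits, for 100.0% of the genes with reads. A shifted step as a control recovered 0 genes. No replicate number goes with a recovered library, so letters A to C stand for their order in depth, deepest first. Each fraction was normalised separately by the authors, so levels are compared within fractions, and the interaction compares changes.

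Genes whose mean reached 10 in WT or in mKO were tested with limma 3.58.1 (R 4.3.3, trend) on log2 (value + 1), so that fold changes of low genes are understated, with Benjamini-Hochberg adjustment over all genes tested at 0.05. The p-values measure the spread between libraries of separate extractions. The script was tested on simulated data. On the recovered reads voom, which models counts, called 3417 genes lower and 2662 higher in RGCs. Gene positions and lengths came from GENCODE M21 (GRCm38), which matched 37365 of 38720 identifiers, and trends of GC content and read density were removed with lowess and loess (span 0.3). Alternatives were pseudocount 0.5, a minimum of 50 or none, total-read scaling, median centring, voom, a fold of 1.5, trend removal and leaving out each library. Members and lists were chosen with earlier results of these data known. The named members were the 3 largest called falls and rises per complex, fixed catalytic and isoform genes and the 5 of highest level per length, and Atp5l, Atp5s, Ndufb4, Ndufb8 and Uqcrb were named with values after their values were seen. Some members that enter the counts are not reported by name here.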

Additional observations from a re-analysis of the deposited data

How the results depend on the processing

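No paired analysis was possible because the recovered libraries carry no replicate numbers. In RGCs the number of members called lower was 47 to 61 without single libraries and fell to 19 with the GC content and reads-per-base trends removed and to 11 with a fold of 1.5. The number called higher was 3 with total-read scaling, 2 with the exon length trend removed, 0 with the GC trend, both trends or the fold, and 0 to 1 without single libraries. The members' median was −0.31 with total-read scaling, −0.35 without the GC trend, −0.36 without the length trend, −0.14 without both trends, and −0.46 to −0.38 without single libraries. Total-read scaling moved the median of all genes to 0.12 and the share of calls that were higher from 43.5% to 63.2%. All 60 members called lower stayed negative in every setting except the removal of the GC trend (58) or of both trends (50). In non-RGCs 5 members were called lower without the length trend and 0 to 8 without single libraries (8 without mKO library C), and 1, Atp5s, was called higher with total-read scaling. The non-RGC median was 0.064 with total-read scaling, 0.092 without both trends, and −0.29 to 0.065 without single libraries. The median difference between fractions was −0.15 without mKO non-RGC library C and −0.49 without library A. Among the members named with values, single changes in RGCs turned sign for Atp5g1 with total-read scaling (0.030). Without both trends they turned for Cox4i2 (0.018), Cox6a1 (0.020), Ndufs1 (−0.20), Sdhb (0.036) and Sdhd (0.041). Ndufs1 also turned without the GC trend (−0.25, adjusted p = 0.018, limma) and without the length trend (−0.015). Cox6b2 turned without mKO library B (−0.06) or WT library B (−0.11), in a range up to 0.11 without single libraries, and Cox7a1 turned without WT library C (−0.13), in a range up to 0.44. The calls of Ndufb2 and Sdhd were lost without each mKO library. The cause of these moves was not tested. The values of some members rest on few reads, such as Atp5l and Cox7a1, and the cause of their few reads was not tested.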
